A study of Mus musculus with 12 samples.

Results

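The insulin-like growth factor (IGF) axis of Sol8 cells, a mouse myoblast line, was described through 10 genes picked by name: the ligand Igf1, its receptor Igf1r, the receptor substrates Irs1 and Irs2, and the binding proteins Igfbp2, Igfbp3, Igfbp4, Igfbp5, Igfbp6 and Igfbp7. They are 10 of the 48586 genes with counts in the table of the series, and all 10 were among the 20415 genes tested. RNA sequencing covered 12 libraries in 4 groups of 3. These were Gne KO cells in the differentiated state (KO_D), WT cells in the differentiated state (WT_D), Gne KO cells in the proliferative state (KO_P) and WT cells in the proliferative state (WT_P). Proliferative cells were kept in medium with FCS and differentiated cells in medium with less serum, from horse, so state and serum cannot be told apart. The word differentiated names the culture condition here. In differentiation medium the paper found that Gne KO cells stayed mostly single and did not fuse, whereas WT cells formed myotubes. The Gne KO libraries come from 1 clone, edited with Cas9 in exon 3 of Gne, the gene of the enzyme that starts sialic acid synthesis, and all libraries go back to a single line. An effect of the clone therefore cannot be told apart from an effect of the Gne deletion.

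IGF1 is a secreted growth factor that binds the tyrosine kinase receptor IGF1R. The activated receptor phosphorylates the docking proteins IRS1 and IRS2, which pass the signal to PI3 kinase, AKT and mTOR. The IGF binding proteins hold IGFs in the extracellular space, can block or prolong their access to the receptor, and are themselves cut by secreted proteases. IGFBP7 binds IGFs only weakly and IGFBP6 prefers IGF2 over IGF1. In skeletal muscle, IGFs are known to promote both the division of myoblasts and their differentiation, and IGFBP5 is the binding protein best known for rising early in myoblast differentiation.

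Igfbp2 and Igfbp5 are neighbours in a tail-to-tail arrangement on chromosome 1 (GRCm38). Igfbp2 lies at chr1:72824503-72852474 on the plus strand and Igfbp5 at chr1:72857932-72874884 on the minus strand, with 5457 bases and 0 annotated genes between them. Igfbp6 lies at chr15:102144362-102149511 on the plus strand and Igfbp7 at chr5:77349240-77408041 on the minus strand. The promoters of these 4 genes are shown because together they carried the largest part of the binding protein transcripts and because, in proliferative cells, Igfbp2 and Igfbp5 were lower and Igfbp6 and Igfbp7 higher in KO_P than in WT_P. RefSeq gives Igfbp2 a second promoter, at chr1:72825137-72825436, and the first is shown. Each window runs from 250 bases before to 50 bases after the start of the RefSeq gene (GRCm38.p6), in the sense of the gene. The E-box CANNTG, a motif read by bHLH factors in general and not by the myogenic ones alone, is in capitals. The Igfbp5 window is chr1:72874816-72875115, the Igfbp2 window chr1:72824230-72824529, the Igfbp6 window chr15:102143936-102144235 and the Igfbp7 window chr5:77407996-77408295.
Igfbp5: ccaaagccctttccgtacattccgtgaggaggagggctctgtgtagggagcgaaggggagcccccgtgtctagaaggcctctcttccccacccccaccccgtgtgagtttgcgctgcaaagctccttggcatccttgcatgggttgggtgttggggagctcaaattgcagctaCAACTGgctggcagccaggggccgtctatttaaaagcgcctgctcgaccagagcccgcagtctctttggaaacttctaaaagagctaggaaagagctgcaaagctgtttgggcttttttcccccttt
Igfbp2: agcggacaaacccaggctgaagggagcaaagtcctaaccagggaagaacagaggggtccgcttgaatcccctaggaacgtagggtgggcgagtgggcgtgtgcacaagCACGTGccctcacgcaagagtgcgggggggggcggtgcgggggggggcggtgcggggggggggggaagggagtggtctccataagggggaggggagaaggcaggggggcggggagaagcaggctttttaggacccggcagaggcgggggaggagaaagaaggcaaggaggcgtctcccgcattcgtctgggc
Igfbp6: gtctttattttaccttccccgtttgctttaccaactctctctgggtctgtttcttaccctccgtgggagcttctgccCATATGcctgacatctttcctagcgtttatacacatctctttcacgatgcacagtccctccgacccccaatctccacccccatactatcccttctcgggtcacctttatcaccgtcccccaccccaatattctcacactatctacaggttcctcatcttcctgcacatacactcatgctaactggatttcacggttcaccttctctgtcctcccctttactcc
Igfbp7: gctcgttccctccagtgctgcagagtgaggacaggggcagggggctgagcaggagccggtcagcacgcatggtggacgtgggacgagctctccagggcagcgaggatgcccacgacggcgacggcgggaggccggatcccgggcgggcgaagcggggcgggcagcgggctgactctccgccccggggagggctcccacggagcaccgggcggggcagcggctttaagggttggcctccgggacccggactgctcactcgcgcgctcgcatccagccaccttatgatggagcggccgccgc
The windows shown for Igfbp5, Igfbp2 and Igfbp6 held 1 E-box each and the Igfbp7 window held 0, in a search of both strands. The second Igfbp2 window held 2 E-boxes and 0 GC boxes (GGGCGG). Of 32851 promoter windows of this length, 72.3% held at least 1 E-box. The E-box form CAGCTG was in none of the windows shown and in 16.3% of all windows. The GC box GGGCGG, the motif of SP1 and its relatives, occurred 3 times in the Igfbp2 window shown and 4 times in the Igfbp7 window, counting both strands and overlaps, and 35.7% of all windows held it. Neither the Igfbp5 nor the Igfbp6 window contained these letters. The Igfbp6 window held 1 TATAAA, on the strand opposite to the one printed, and 13.6% of all windows held it on either strand. The FOXO motif GTAAACA was in none of the windows of the 10 genes and in 3.65% of all windows.

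Total counts ranged between 22612038 and 29389759 per library, with a median of 26740404. Counts were scaled to a common library size, and these normalized counts are given per library in the order of the replicate numbers. A gene passed the test at a limma adjusted p under 0.05 over all genes. It also passed the fold limit where its mean normalized count was at least 5 and its absolute log2 fold change exceeded the sum of 0.9 and the ratio of 7.5 to the square root of this mean. Libraries of a differentiated group lay closer together than those of a proliferative group. Each library was compared with the mean of the other libraries of its group, over genes with a mean of at least 100. The SD of the log2 differences was 0.0887 to 0.134 in KO_D and WT_D, against 0.392, 0.293 and 0.295 in KO_P and 0.289, 0.16 and 0.179 in WT_P. WT_P replicate 1 also had more RNA of muscle genes than its group: Myog, a regulator of myoblast differentiation, had 8899 normalized counts there against 2647 and 2459 in the other WT_P libraries. Of 13 tested muscle markers, 12 were lower and 0 higher in KO_D than in WT_D, and 11 were lower and 0 higher in KO_P than in WT_P. Their summed normalized counts were 14000 to 16047 in KO_D against 120176 to 132458 in WT_D, and 17092 to 26444 in KO_P against 52697 to 106831 in WT_P. The KO_D sums thus lay below the KO_P sums, while the WT_D sums lay above the WT_P sums. The satellite cell marker Pax7 stayed under 10 in all libraries. Summed fibroblast markers were 22569 to 23112 in KO_D against 11437 to 12269 in WT_D, and 21980 to 24546 in KO_P against 8199 to 13022 in WT_P. The fibroblast markers did not move as 1 set: Col15a1, Lum and Thy1 stayed under 10 in all libraries. Of 6 tested, 4 were higher and 1 lower in KO_D than in WT_D, and 2 were higher and 1 lower in KO_P than in WT_P. Summed smooth muscle markers were 21541 to 23215 in KO_D against 32301 to 39428 in WT_D, and 70338 to 106938 in KO_P against 61876 to 72376 in WT_P. Of 6 tested, 1 was higher and 3 lower in KO_D than in WT_D, and 4 were higher and 1 lower in KO_P than in WT_P, with Myh11 under 10 throughout. Of all genes tested, 11.1% were higher and 12.5% lower in KO_D than in WT_D, and 28.2% and 27.2% in KO_P than in WT_P. Markers of bone and cartilage summed to 2671 to 5183 over all libraries, with Acan and Ibsp at 0, and those of adipocytes, endothelium, immune cells and nerve to at most 226, with Adgre1 at 0. The part of these shifts in the results below was not tested, and in bulk RNA fewer cells of a type and less RNA per cell cannot be told apart. Gne itself had 205 to 212 normalized counts in KO_D against 264 to 285 in WT_D, and 232 to 344 in KO_P against 255 to 278 in WT_P. A small deletion in an exon need not lower a gene's count, so these values do not check the labels.

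**Figure D1:**
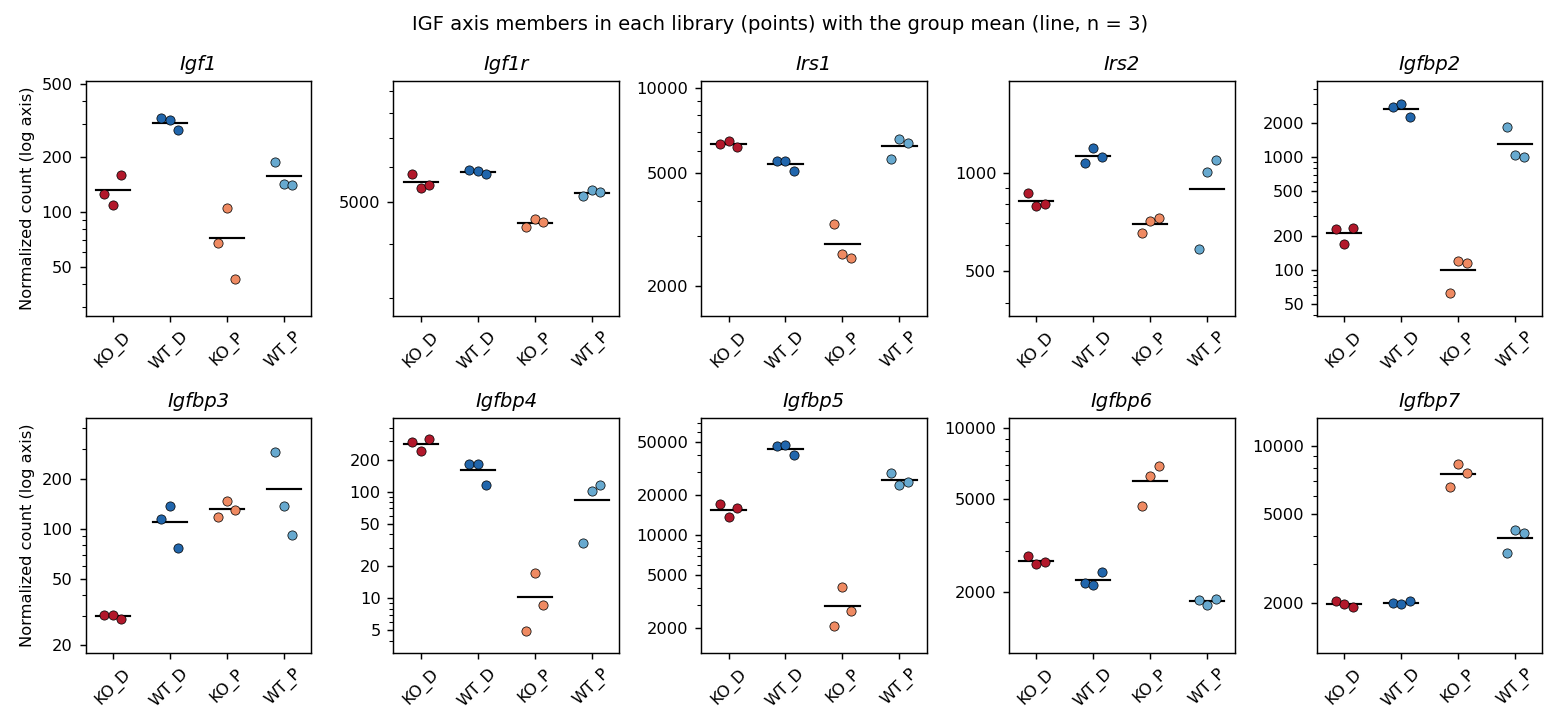
Normalized counts (log axis) of the 10 genes in each library (points) and the group mean (line, n = 3), by group. Igfbp2 and Igfbp5 sit lower in every Gne KO library than in any WT library of the same state, while Igfbp6 and Igfbp7 are highest in KO_P.

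Between the genotypes, 5 of the 10 genes passed the test in differentiated and 8 in proliferative cells. In proliferative cells 6 of the 10 genes were lower and 2 higher in KO_P than in WT_P, where 27.2% of all genes tested were lower and 28.2% higher. Igf1, Igf1r, Irs1, Igfbp2, Igfbp4 and Igfbp5 were the lower genes, and Igfbp6 and Igfbp7 the higher. With the trend over GC content and transcript length removed, 5 were lower and 2 higher: Igf1 and Igf1r turned direction and missed the test, and Irs2 passed it as lower (−0.5, adjusted p 0.0335). In the fit without that removal, 4 of 10 passed the fold limit as lower (Irs1, Igfbp2, Igfbp4 and Igfbp5) and 1 as higher (Igfbp6), against 6.88% and 2.38% of all genes. With the trend removed, 3 passed it as lower and 1 as higher, and Irs1 (−0.97) missed it. In differentiated cells 4 of the 10 genes were lower (Igf1, Igfbp2, Igfbp3 and Igfbp5) and 1 higher (Igfbp4) in KO_D than in WT_D, where 12.5% of all genes were lower and 11.1% higher. Here 3 genes passed the fold limit as lower (Igfbp2, Igfbp3 and Igfbp5) and 0 as higher, against 2.48% and 0.519% of all genes. The median log2 fold change of the 10 genes was −0.27 in differentiated and −0.73 in proliferative cells, beside −0.01 and −0.02 over all genes tested. The count of 5 genes past the test in differentiated cells became 8 in limma without KO_P replicate 1, since the groups share 1 spread per gene, and Irs1 and Igfbp6 (higher) and Irs2 (lower) were added. It became 7 with the trend over GC content and length removed, 3 higher and 4 lower. Irs1 (0.37, adjusted p 0.00754) and Igfbp6 (0.29, adjusted p 0.0116) were then added as higher.

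**Figure D2:**
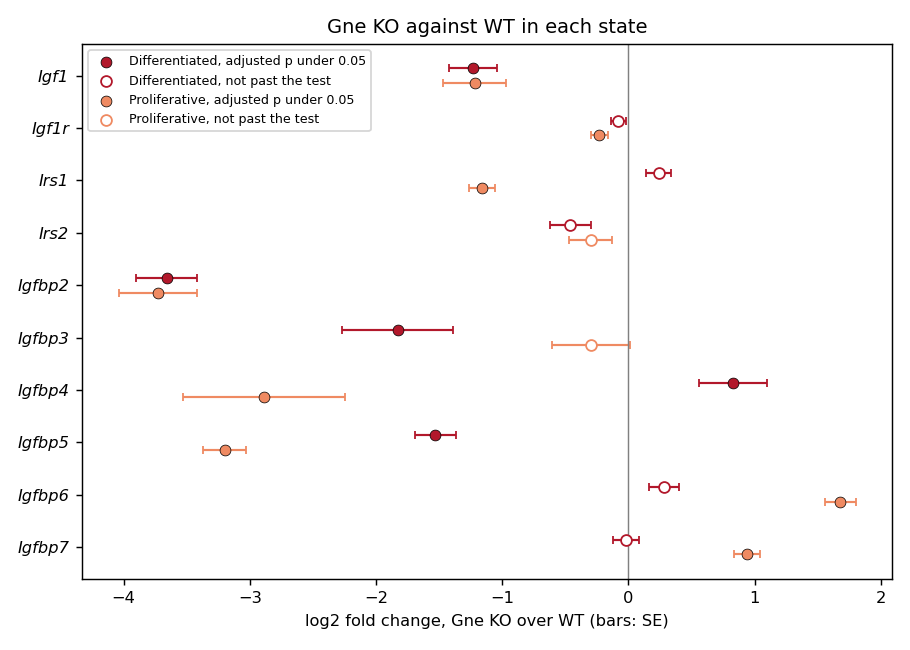
Log2 fold change of Gne KO over WT with its SE for each gene, in differentiated and in proliferative cells (3 libraries per group). Filled points passed an adjusted p of 0.05. Igfbp2 lies near −3.7 in both states, and Irs1, Igfbp3, Igfbp4, Igfbp5, Igfbp6 and Igfbp7 have unlike values in the 2 states.

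The ligand Igf1 was lower in Gne KO than in WT cells of either state, by a like amount. It had 125, 109 and 159 normalized counts in KO_D against 323, 317 and 278 in WT_D, and 67.2, 105 and 43 in KO_P against 186, 142 and 139 in WT_P. Every Gne KO library lay below every WT library of its state. The log2 fold change was −1.23 (SE 0.19) in differentiated cells, with a limma adjusted p of 0.000198, and −1.22 (SE 0.25) in proliferative cells, with 0.000616. The difference between these effects was −0.01 (95% interval −0.63 to 0.61). Igf1 was also higher in the differentiated state, by 0.96 on the log2 scale (SE 0.25, adjusted p 0.00413) in KO_D over KO_P and by 0.97 (SE 0.19, adjusted p 0.000893) in WT_D over WT_P. From low to high the groups ran KO_P, KO_D, WT_P and WT_D, and the ranges of KO_D and WT_P overlapped. Transcripts rich in GC had higher and those poor in GC lower values in KO_P than in WT_P: over 10676 genes, which are not independent replicates, the log2 fold change had a Spearman correlation of 0.605 with GC content. In KO_D against WT_D that correlation was 0.145. Igf1 has the lowest GC content of the 10 genes, at 38%, and with the trend over GC content and length removed its log2 fold change of KO_P over WT_P was 0.18 (adjusted p 0.596) and that of KO_D over KO_P −0.34 (adjusted p 0.294). The value in differentiated cells hardly moved with that removal, to −1.15 (adjusted p 0.000442).

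Igf1r, the signalling receptor, varied least of the 10 genes, with a highest group mean of 1.31 times the lowest. It had 5812, 5388 and 5478 normalized counts in KO_D against 5926, 5878 and 5791 in WT_D, and 4373, 4559 and 4486 in KO_P against 5156, 5328 and 5265 in WT_P. The groups overlapped in the differentiated state and not in the proliferative. In proliferative cells the log2 fold change was −0.23 (SE 0.07, limma adjusted p 0.0066), and in differentiated cells −0.08 (95% interval −0.2 to 0.05, adjusted p 0.432). KO_D exceeded KO_P by 0.31 on the log2 scale (SE 0.06, adjusted p 0.000609), whereas WT_D over WT_P was 0.16 (SE 0.06, adjusted p 0.0711). The last value passed the test without KO_P replicate 1 (adjusted p 0.011) and without KO_P replicate 3 (0.0402). With the GC and length trend removed, Igf1r was 0.12 (adjusted p 0.148) in KO_P over WT_P and 0.11 (adjusted p 0.177) in KO_D over KO_P.

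Irs1, a main docking protein of the receptor, was low in KO_P, while the means of the other 3 groups lay between 5371 and 6349. It had 6355, 6506 and 6186 normalized counts in KO_D against 5533, 5512 and 5067 in WT_D, and 3310, 2583 and 2499 in KO_P against 5623, 6613 and 6405 in WT_P. All 3 KO_P libraries lay below the other 9. KO_P was 2.23-fold lower than WT_P (log2 fold change −1.16, SE 0.1, limma adjusted p 1.93e-07), while KO_D over WT_D was 0.24 (SE 0.1, adjusted p 0.0867; 0.0085 without KO_P replicate 1). KO_D exceeded KO_P by 1.19 on the log2 scale (SE 0.1, adjusted p 6.39e-08), and WT_D over WT_P was −0.21 (SE 0.1, adjusted p 0.123; 0.017 without KO_P replicate 1). The Gne KO effect differed between the states by 1.4 on the log2 scale (SE 0.14, adjusted p 3.09e-06). With the GC and length trend removed, KO_D over WT_D was 0.37 (adjusted p 0.00754) and passed the test. Exons of Irs1 overlap the antisense gene Gm9747 over 2822 bases, and the strand setting of the counting is not stated in the sources used, so reads of the overlap cannot be assigned.

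Irs2, the second docking protein, passed no test among the 5 contrasts. It had 865, 791 and 801 normalized counts in KO_D against 1070, 1193 and 1114 in WT_D, and 652, 710 and 726 in KO_P against 582, 1002 and 1094 in WT_P. WT_P replicate 1 fell below all KO_P libraries, whereas the differentiated groups did not overlap. The log2 fold change was −0.46 (SE 0.16, adjusted p 0.0543) in KO_D over WT_D and −0.3 (SE 0.17, adjusted p 0.157) in KO_P over WT_P. Without WT_P replicate 1 these were −0.46 (adjusted p 0.00071) and −0.59 (adjusted p 9.95e-05), so both passed. The differentiated contrast also passed without WT_P replicate 3 (adjusted p 0.0308) and without KO_P replicate 1 (0.0491). WT_D over WT_P was 0.4 (adjusted p 0.076), and passed without WT_P replicate 2 (0.51, adjusted p 0.0475) or replicate 3 (0.57, adjusted p 0.0157). KO_D over KO_P was 0.24 (adjusted p 0.254; 0.0267 without WT_P replicate 1). Irs2 exons overlap 9530052E02Rik on the other strand over 162 bases.

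Igfbp5 was the most abundant of the binding protein transcripts in WT cells and was lower in Gne KO cells of both states. It had 17025, 13553 and 15886 normalized counts in KO_D against 46410, 47691 and 40068 in WT_D, and 2081, 4038 and 2704 in KO_P against 29101, 23889 and 25003 in WT_P. No libraries of any pair of groups overlapped, and the order from low to high was KO_P, KO_D, WT_P and WT_D. KO_P was 9.17-fold lower than WT_P (log2 fold change −3.2, SE 0.17, limma adjusted p 2.4e-09) and KO_D 2.89-fold lower than WT_D (−1.53, SE 0.16, adjusted p 4.81e-06). In both genotypes the level was higher in the differentiated state, by 2.45 on the log2 scale (SE 0.17, adjusted p 9.24e-09) in KO_D over KO_P and by 0.78 (SE 0.16, adjusted p 0.0013) in WT_D over WT_P. The difference of the Gne KO effects between states was 1.67 (SE 0.23, adjusted p 5.32e-05).

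Igfbp2, next to Igfbp5 in the genome, showed the largest change of the 10 genes between genotypes. It had 230, 171 and 236 normalized counts in KO_D against 2799, 2971 and 2291 in WT_D, and 62.2, 121 and 116 in KO_P against 1840, 1052 and 1011 in WT_P. Every Gne KO library lay far below every WT library of either state. KO_D was 12.6-fold lower than WT_D (log2 fold change −3.66, SE 0.24, limma adjusted p 4.69e-08) and KO_P 13.3-fold lower than WT_P (−3.73, SE 0.31, adjusted p 1.28e-07). These effects differed by 0.07 (95% interval −0.69 to 0.83). Igfbp2 was higher in the differentiated state, by 1.16 on the log2 scale (SE 0.34, adjusted p 0.00815) in KO_D over KO_P and by 1.08 (SE 0.19, adjusted p 0.000357) in WT_D over WT_P. The first of these was 0.83 (adjusted p 0.101) without KO_P replicate 1 and 0.97 (adjusted p 0.0576) with sample quality weights. Over the 12 libraries the genes of the most similar log2 level to Igfbp2 were Tnnc2 (Pearson r 0.997), a fast muscle troponin, and Mybph (r 0.994), a myosin binding protein, among 10684 genes compared. The 12 points fall into the 4 groups, so these values describe the pattern only, and they stand beside the lower muscle markers of the Gne KO libraries given above.

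Igfbp4 had the widest range of the 10 genes, with a highest group mean 27.3 times the lowest. It had 292, 241 and 311 normalized counts in KO_D against 182, 183 and 117 in WT_D, and 4.94, 17.3 and 8.61 in KO_P against 32.9, 103 and 115 in WT_P. The KO_P values rest on 5, 15 and 8 raw counts. Gne KO cells thus had the highest level in one state and the lowest in the other. KO_P was 7.43-fold lower than WT_P (log2 fold change −2.89, SE 0.64, limma adjusted p 0.00122), KO_D was 1.77-fold higher than WT_D (0.83, SE 0.27, adjusted p 0.0345), and the difference of these effects was 3.72 (SE 0.7, adjusted p 0.000577). The higher value in KO_D lost significance in 5 of the 12 fits with 1 library left out: without WT_D replicate 1 (0.92, adjusted p 0.0638), WT_D replicate 2 (0.94, 0.0586), WT_D replicate 3 (0.62, 0.158), KO_D replicate 1 (0.8, 0.097) and KO_D replicate 3 (0.75, 0.11). It also missed the test with limma-trend in place of voom (0.82, adjusted p 0.174), with the replicate block (0.83, adjusted p 0.0709) and with no filter on low counts (0.84, adjusted p 0.0508). KO_D exceeded KO_P by 4.9 on the log2 scale (SE 0.61, adjusted p 4.08e-06), a 29.9-fold difference. WT_D exceeded WT_P by 1.18 on the log2 scale (SE 0.35, adjusted p 0.0155), but by 0.53 (adjusted p 0.114) without WT_P replicate 1, where Igfbp4 was lowest, and the test was also missed without WT_D replicate 1 (1.04, adjusted p 0.0634) and replicate 2 (1.07, adjusted p 0.0562).

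Igfbp3, the main carrier of IGFs in serum, was scarce and had its lowest level in KO_D. It had 30.4, 30.3 and 28.8 normalized counts in KO_D against 115, 137 and 76.2 in WT_D, and 118, 146 and 130 in KO_P against 290, 137 and 91.3 in WT_P. The proliferative groups overlapped and the differentiated groups did not. KO_D was 3.55-fold lower than WT_D (log2 fold change −1.83, SE 0.44, limma adjusted p 0.00673) and 4.31-fold lower than KO_P (−2.11, SE 0.44, adjusted p 0.000633). KO_P over WT_P was −0.3 (95% interval −0.91 to 0.32, adjusted p 0.444), and 0.22 (adjusted p 0.457) without WT_P replicate 1, the library with the highest value. WT_D over WT_P was −0.58 (adjusted p 0.19), and −0.94 (adjusted p 0.0206) without WT_P replicate 3. The difference of the Gne KO effects between the states was −1.53 (SE 0.54, adjusted p 0.0329), and it passed in 3 of the 12 fits with 1 library left out. In the other fits it ranged between −1.55 and −1.17, with adjusted p of 0.0544 to 0.0801, and these left out WT_P replicate 2 or 3, WT_D replicate 1 or 2, KO_P replicate 2 or 3, or any KO_D library. With the GC and length trend removed it was −1.06 (adjusted p 0.148), and it also missed the test with library size alone (−1.32, adjusted p 0.0676), with no filter on low counts (−1.47, adjusted p 0.0543) and with a CPM filter (−1.41, adjusted p 0.0517).

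Igfbp6 and Igfbp7 went the other way in proliferative cells. Igfbp6 had 2861, 2634 and 2686 normalized counts in KO_D against 2187, 2138 and 2434 in WT_D, and 4662, 6284 and 6937 in KO_P against 1855, 1764 and 1874 in WT_P. No groups overlapped, and KO_P was highest. Igfbp6 was 3.21-fold higher in KO_P than in WT_P (log2 fold change 1.68, SE 0.12, limma adjusted p 2.77e-08), and KO_D over WT_D was 0.28 (SE 0.12, adjusted p 0.102; 0.0042 without KO_P replicate 1). KO_D was lower than KO_P (log2 fold change −1.11, SE 0.11, adjusted p 6.23e-07), whereas WT_D over WT_P was 0.3 (SE 0.12, adjusted p 0.0701), which passed without KO_P replicate 1 (0.00242) and replicate 3 (0.0324). The Gne KO effect differed between states by −1.4 on the log2 scale (SE 0.17, adjusted p 1.28e-05). With the GC and length trend removed, KO_D over WT_D was 0.29 (adjusted p 0.0116) and passed the test. Igfbp6 has a GC content of 60.7% and the shortest exons of the 10 genes, 1112 bases in all, and with the GC and length trend removed the log2 fold change of KO_P over WT_P was 1.07 (adjusted p 1.01e-07) and that of KO_D over KO_P −0.53 (adjusted p 3.21e-05), with a difference between states of −0.78 (adjusted p 0.000106).

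Igfbp7 had 2055, 1995 and 1932 normalized counts in KO_D against 2014, 1998 and 2045 in WT_D, and 6562, 8363 and 7628 in KO_P against 3369, 4240 and 4117 in WT_P. The differentiated groups overlapped closely, and every proliferative library lay above every differentiated one. KO_P exceeded WT_P by 0.94 on the log2 scale (SE 0.1, limma adjusted p 1.03e-06), and KO_D over WT_D was −0.02 (95% interval −0.22 to 0.18, adjusted p 0.926). The level was 3.75-fold lower in KO_D than in KO_P (−1.91, SE 0.1, adjusted p 4.77e-10) and 1.92-fold lower in WT_D than in WT_P (−0.94, SE 0.1, adjusted p 3.88e-06). The Gne KO effect differed between states by −0.96 on the log2 scale (SE 0.14, adjusted p 7.9e-05). With the GC and length trend removed KO_P over WT_P was 0.34 (adjusted p 0.00802), KO_D over KO_P was −1.32 (adjusted p 3.37e-08) and the difference between states was −0.33 (adjusted p 0.0753), no longer past the test. Its exons overlap Polr2b on the other strand over 85 bases.

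Between the states, 9 of the 10 genes passed the test in Gne KO cells and 5 in WT cells. In KO_D over KO_P 6 of the 10 genes were higher and 3 lower, where 28.7% of all genes were higher and 27.7% lower, and with the fold limit 4 were higher (Irs1, Igfbp2, Igfbp4 and Igfbp5) and 3 lower (Igfbp3, Igfbp6 and Igfbp7), against 6.84% and 4.84%. In WT_D over WT_P 4 were higher (Igf1, Igfbp2, Igfbp4 and Igfbp5) and 1 lower (Igfbp7), against 16.6% and 15.3% of all genes, and 0 passed the fold limit in either direction, against 1.85% higher and 0.852% lower. Without WT_P replicate 1 the fold limit was passed by 1 higher and 1 lower gene, and without WT_D replicate 3 by 1 higher gene. The count of 5 past the test became 8 without KO_P replicate 1. With the GC and length trend removed, 7 genes passed the test in KO_D over KO_P, without Igf1 and Igf1r, and 6 in WT_D over WT_P. The fold limit was then passed in KO_D over KO_P by 4 higher and 2 lower genes, without Igfbp6 (−0.53). The difference in response was itself past the test for 6 of the 10 genes, 3 positive and 3 negative, where 19.7% and 22.2% of all genes were. With the fold limit these were 3 positive (Irs1, Igfbp4 and Igfbp5) and 1 negative (Igfbp6), against 5.54% and 3% of all genes. With the GC and length trend removed, 3 positive and 0 negative passed the fold limit. The median log2 change was 0.64 in Gne KO and 0.35 in WT cells, beside 0.07 and 0.02 over all genes. These contrasts share libraries with the genotype contrasts and are not independent of them.

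**Figure D3:**
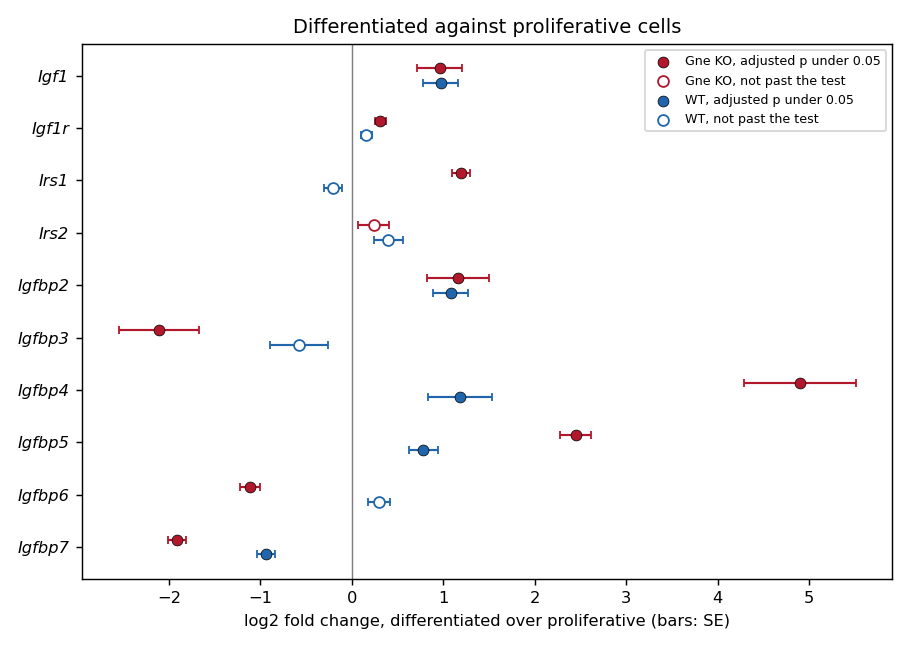
Log2 fold change of differentiated over proliferative cells with its SE for each gene, in Gne KO and in WT cells (3 libraries per group). Filled points passed an adjusted p of 0.05. Igfbp4 and Igfbp5 have larger positive values in Gne KO cells (4.9 and 2.45) than in WT cells (1.18 and 0.78).

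To compare levels between genes, normalized counts were divided by the exon length in kb. Igfbp5 had the largest share of the pool of Igfbp2 to Igfbp7 transcripts in WT cells of both states, whereas Igfbp7 had the largest share in KO_P. The Igfbp5 share was 37.5% ± 2.07 in KO_D against 58.7% ± 2.06 in WT_D, and 3.97% ± 0.918 in KO_P against 43.3% ± 2.95 in WT_P (SD, n = 3 each). Igfbp6 took 35.7% ± 0.944 in KO_D against 16.1% ± 2.11 in WT_D, and 43.9% ± 3.23 in KO_P against 16.5% ± 0.54 in WT_P. The Igfbp7 share was 24.1% ± 1.38 in KO_D against 13.2% ± 0.94 in WT_D, and 51.3% ± 2.98 in KO_P against 32.5% ± 4.99 in WT_P. None of these ranges overlapped between the genotypes of a state. Shares are parts of a sum, so a share can rise without a rise in the gene's own counts. Igfbp7 had mean normalized counts of 1994 in KO_D and 2019 in WT_D, although its share was larger in KO_D. The GC and length trend was not removed from the shares. Its removal took KO_P over WT_P from 1.68 to 1.07 for Igfbp6 and from 0.94 to 0.34 for Igfbp7, on the log2 scale. Igfbp2 took 1.67% in KO_D against 11.5% in WT_D, and 0.436% in KO_P against 7% in WT_P. Igfbp3 and Igfbp4 each took at most 1.03% in any library. The summed level of the 6 genes was 6868 ± 437 per kb in KO_D against 12669 ± 727 in WT_D, and 12167 ± 1847 in KO_P against 9987 ± 363 in WT_P. The differentiated sums did not overlap, while the lowest KO_P sum of 10039 lay below the highest WT_P sum of 10397. Per kb, Irs1 had 694 in KO_D against 587 in WT_D, and 306 in KO_P against 680 in WT_P. Igf1 was the scarcest of the 10 genes per kb in WT cells, with 30.9 in WT_D and 15.7 in WT_P. Igfbp4 was the scarcest in KO_P with 2.33, and Igfbp3 in KO_D with 9.53.

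**Figure D4:**
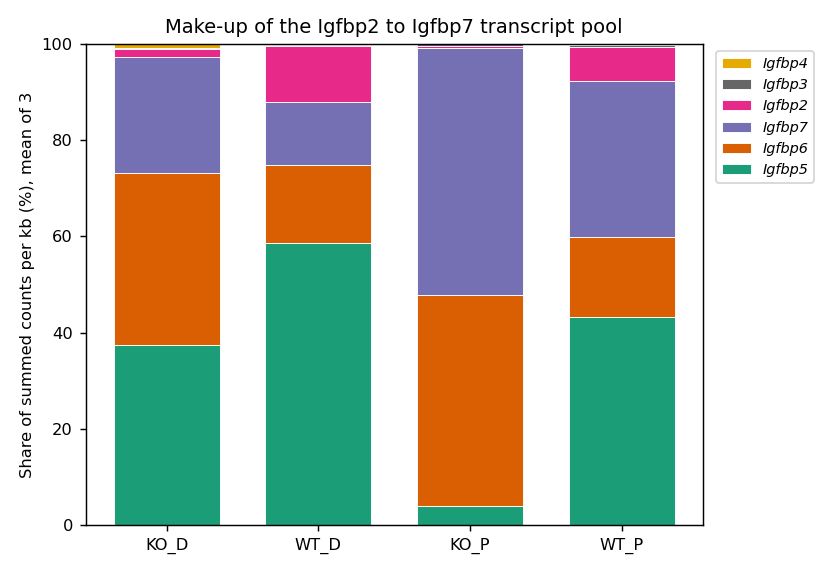
Share of each gene in the summed normalized counts per kb of Igfbp2 to Igfbp7 (%, stacked, mean of 3 libraries), by group. Igfbp5 makes up 37.5% in KO_D, 58.7% in WT_D, 3.97% in KO_P and 43.3% in WT_P. A share can rise without a rise in the gene's own counts, and the GC and length trend is not removed.

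The other genes of the pathway were taken from a list of 60 by role, of which 53 were tested. Ins1, Insrr, Igfbp1, Igfbpl1, Igfals, Stc1 and Irs4 had too few counts. Of the 53, 6 were higher and 12 lower in KO_D than in WT_D, and 18 were higher and 21 lower in KO_P than in WT_P, with medians of −0.05 and 0.01. Over all genes, 11.1% were higher and 12.5% lower in KO_D than in WT_D and 28.2% higher and 27.2% lower in KO_P than in WT_P, with medians of −0.01 and −0.02. The 6 of 53 and the 18 of 53 that were higher are shares near these. With the trend over GC content and length removed, 11 were higher and 13 lower in KO_D than in WT_D. In KO_P against WT_P that removal left 17 higher and 16 lower. Values of single pathway genes below are from the fit without that removal. The sum of 18 past the test in KO_D against WT_D became 35 when only the 6 libraries compared entered the fit and 28 without both WT_P replicate 1 and KO_P replicate 1, a setting chosen after seeing the data. The shares of all genes above are from the fit reported. Those of the other fits, also with the trend removed, are not given, so their counts cannot be set against a share. Among the ligands, Igf2, a fetal growth factor that myoblasts can also make, was nearly absent from Gne KO cells. It had 0.869, 0 and 1.86 normalized counts in KO_D against 20.1, 20.5 and 10 in WT_D (log2 fold change −3.79, SE 0.75, limma adjusted p 0.00156), and 2.96, 1.16 and 2.15 in KO_P against 30.3, 8.88 and 9.13 in WT_P (−2.54, SE 0.66, adjusted p 0.00408). These folds rest on very few reads.

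Of the receptors, Igf2r, which clears IGF2 from the cell surface, was lower in Gne KO cells of both states. It had 40.9, 36.8 and 37.1 normalized counts in KO_D against 202, 168 and 169 in WT_D (−2.21, SE 0.24, adjusted p 6.56e-06), and 32.6, 34.7 and 24.7 in KO_P against 218, 138 and 126 in WT_P (−2.37, SE 0.27, adjusted p 2.37e-06). The insulin receptor Insr, which forms hybrids with the IGF1 receptor, had 3768, 3526 and 3494 in KO_D against 2254, 2405 and 2220 in WT_D (0.65, SE 0.09, adjusted p 6.29e-05), and 1264, 964 and 1016 in KO_P against 1614, 1724 and 1710 in WT_P (−0.64, SE 0.1, adjusted p 3.34e-05). Its direction was thus opposite in the 2 states, with a difference of 1.29 (SE 0.13, adjusted p 3.39e-06) that passed the fold limit, and KO_D exceeded KO_P by 1.74 on the log2 scale (adjusted p 6.11e-10).

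Proteases that cut the binding proteins, and the inhibitors of these proteases, numbered 5 tested genes, all past the test in KO_D against WT_D (2 higher and 3 lower) and 4 in KO_P against WT_P (1 higher and 3 lower), beside the shares of all genes just given. Pappa, a protease of IGFBP4, had 1.74, 0 and 0.929 normalized counts in KO_D against 4.8, 6.54 and 5.02 in WT_D (−2.28, SE 0.55, adjusted p 0.00617), and 4.94, 4.63 and 3.23 in KO_P against 27.7, 30 and 25.1 in WT_P (−2.56, SE 0.37, adjusted p 2.43e-05). Stc2, an inhibitor of PAPPA, was lower in KO_D than in KO_P (log2 fold change −2.21, SE 0.3, adjusted p 1.05e-05). It was also lower in WT_D than in WT_P (−1.4, SE 0.21, adjusted p 8.67e-05). Between the genotypes it was lower in KO_D than in WT_D (−1.78, SE 0.3, adjusted p 0.000477) and in KO_P than in WT_P (−0.97, SE 0.2, adjusted p 0.000617). Its interaction missed the test (adjusted p 0.0867). Htra1, a serine protease known to cut IGFBP5, was the abundant member of this group, with 10716, 15324 and 13994 in KO_P against 2391, 4572 and 5243 in WT_P (1.78, SE 0.21, adjusted p 3.12e-06). In KO_D over WT_D Htra1 was 0.94 (SE 0.2, adjusted p 0.00258).

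Among the intracellular genes, 9 of the 24 in the AKT and mTOR list were higher, 7 lower and 8 not past the test in KO_P against WT_P, where 28.2% of all genes were higher and 27.2% lower. In KO_D against WT_D 1 was higher and 2 lower, where 11.1% and 12.5% of all genes were. Rictor, a subunit of mTORC2, had 1678, 988 and 1014 normalized counts in KO_P against 3801, 3626 and 3619 in WT_P (−1.63, SE 0.14, adjusted p 1.96e-07), and 3839, 3793 and 3758 in KO_D against 3598, 3461 and 3783 in WT_D (0.07, adjusted p 0.753). Its difference between states was 1.7 (SE 0.19, adjusted p 9.62e-06), and that of Rps6kb1, the S6 kinase, was 1.1 (SE 0.14, adjusted p 2.96e-05). Akt1 was lower in KO_D than in KO_P (log2 fold change −1.08, SE 0.1, adjusted p 1.73e-07). It was higher in KO_P than in WT_P (0.76, SE 0.1, adjusted p 1.02e-05), while KO_D over WT_D was −0.05 (SE 0.1, adjusted p 0.751). Of the 17 tested adaptor and PI3 kinase genes, 7 were higher and 6 lower in KO_P than in WT_P, and 1 higher and 3 lower in KO_D than in WT_D, against the same shares of all genes. Socs2, a feedback inhibitor of growth hormone signalling, was lower in KO_P than in WT_P (log2 fold change −1.62, SE 0.16, adjusted p 7.47e-07). Socs3, a cytokine inhibitor, was higher in WT_D than in WT_P by 1.81 on the log2 scale (SE 0.16, adjusted p 8.52e-07), and its Gne KO effect differed between states by −1.54 on the log2 scale (SE 0.24, adjusted p 0.000117). Of the IGF2 mRNA binding proteins, Igf2bp1 was higher in KO_P than in WT_P (2.69, SE 0.33, adjusted p 6.6e-06), and Igf2bp3 was lower in Gne KO cells of both states (log2 fold change −2.55, SE 0.42, adjusted p 0.000331 in differentiated cells, and −2.31, SE 0.28, adjusted p 4.81e-06 in proliferative cells).

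**Figure D5:**
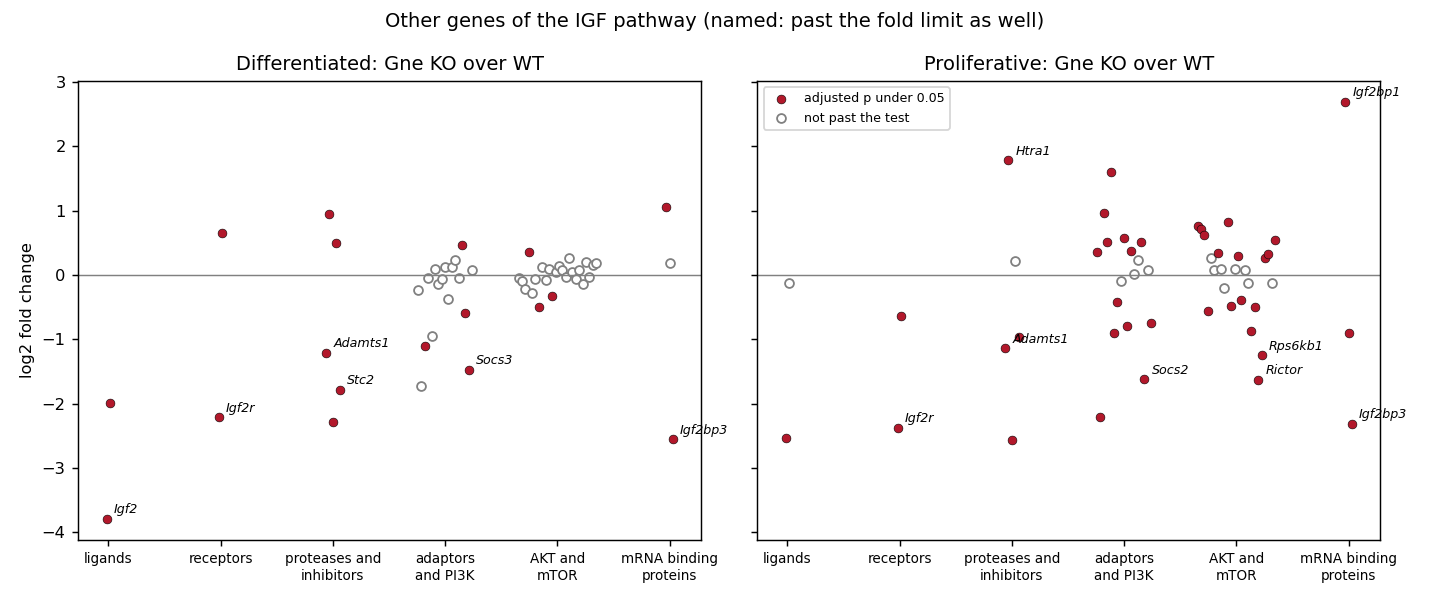
Log2 fold change of Gne KO over WT for the other pathway genes tested, by role, in differentiated and in proliferative cells. Filled points passed an adjusted p of 0.05 and genes also past the fold limit are named. The filled points number 6 higher and 12 lower in differentiated cells, where 11.1% and 12.5% of all genes passed, and 18 higher and 21 lower in proliferative cells, where 28.2% and 27.2% passed.

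By state, 17 of the 53 genes were higher and 18 lower in KO_D than in KO_P, where 28.7% of all genes were higher and 27.7% lower. In WT_D over WT_P 13 were higher and 11 lower, where 16.6% and 15.3% of all genes were. The interaction was past the test for 29 of them, 13 positive and 16 negative, where 19.7% and 22.2% of all genes were. With the trend over GC content and length removed, it was past the test for 20, 9 positive and 11 negative, and the share of all genes in that fit is not given. The genes with the most similar log2 levels over the 12 libraries, given as a description since the points fall into 4 groups, were Sema6a (Pearson r 0.988) and Atp2b4 (0.986) for Igfbp5, Evi5 and Rlf (0.99 each) for Irs1, and Acsl3 (0.978) and Sync (0.968) for Igf1. For Igf1r they were Acpp (0.983) and Fndc1 (0.981), for Irs2 Kcnk2 (0.925) and Msmo1 (0.92), and for Igfbp3 Vash2 (0.97) and Myod1 (0.966). For Igfbp4 they were Nedd9 (0.988) and Sema3c (0.978), for Igfbp6 Mrpl43 (0.996) and BC017158 (0.995), and for Igfbp7 Pprc1 (0.995) and Ppp1r8 (0.994). Among these, Myod1 is a myogenic transcription factor and Atp2b4 a calcium pump of the plasma membrane.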

How the data were processed

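RNA of the 12 Sol8 libraries was sequenced from a stranded mRNA kit with single-end reads. The authors trimmed, aligned to GRCm38 and counted reads per gene, with TopHat2 2.1.1 and HTSeq 0.6.1 among the tools in the submitters' processing notes, beside cutadapt 1.18 and DESeq2 1.22.1. The strand setting of the counting is not stated in the sources used. The deposited table lists 54838 genes with another, mixed unit: whole raw counts, not normalized, for 48586 genes and a question mark in place of them for 6252. Its other columns hold the authors' normalized counts, fold changes and p-values of their own comparisons, and none were used. All count columns matched a sample's labels.

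Genes were tested where their counts summed to at least 10. TMM scaling factors were calculated in base R, trimming 30% of log ratios and 5% of levels, and the 4 groups were fitted together by voom in limma 3.58.1 (R 4.3.3), after a test on simulated data. P-values were adjusted by Benjamini-Hochberg over the 20415 genes tested. The 95% intervals take a normal distribution around the estimate and are somewhat narrower than the t distribution behind the limma p-values would give. A normalized count is a count divided by its scaled library size and multiplied by the mean of these sizes. Genes of like pattern were ranked by log2 CPM with a prior count of 2. At this depth the median SE of a log2 fold change was 0.107 to 0.108 in the comparisons of 2 groups, for genes with a mean of at least 100. The labels call the libraries biological replicates and the methods name 3 cultures in triplicates, so p-values measure the spread between these libraries, which may be technical. No libraries were duplicates, with a chi-square per gene between replicates of 4.77 to 104.

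The 10 genes, the pathway and marker lists and the tests were chosen with earlier results of these data known. Beyond the 10 genes, Igf2, Insr, Igf2r, Pappa and Gne are given, with up to 4 higher and 4 lower pathway or FOXO target genes of largest fold among those past the fold limit in a comparison, and for each of the 10 genes the 2 most correlated genes with a mean of at least 100. Alternatives were other scalings, filters and tests, a GC content and length correction, a replicate block, only the libraries compared, and each library left out. Shares of all genes are those of the fit reported, and none are given for the alternatives.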

Additional observations from a re-analysis of the deposited data

Results flagged for a closer look

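The effect of the Gne KO differed between the differentiated and the proliferative state, by the interaction term of the limma fit, for 6 of the 10 genes. Of all genes tested, 19.7% passed this test with a positive and 22.2% with a negative difference. The values are the log2 effect in differentiated cells minus that in proliferative cells, with 3 libraries per group. Irs1 had 1.4 (SE 0.14, adjusted p 3.09e-06), Igfbp4 had 3.72 (SE 0.7, adjusted p 0.000577) and Igfbp5 had 1.67 (SE 0.23, adjusted p 5.32e-05). In Irs1 and Igfbp4 the effect in differentiated cells was positive (0.24 and 0.83) and that in proliferative cells negative (−1.16 and −2.89), while Igfbp5 was lower in Gne KO cells of both states (−1.53 and −3.2). Igfbp6 had −1.4 (SE 0.17, adjusted p 1.28e-05), Igfbp7 had −0.96 (SE 0.14, adjusted p 7.9e-05) and Igfbp3 had −1.53 (SE 0.54, adjusted p 0.0329). The Igfbp3 difference passed in 3 of the 12 fits with 1 library left out, and missed the test with library size alone (adjusted p 0.0676), no filter on low counts (0.0543) or a CPM filter (0.0517). With the trend over GC content and length removed, 5 of the 10 genes passed the test: Igfbp3 (−1.06, adjusted p 0.148) and Igfbp7 (−0.33, adjusted p 0.0753) were lost and Igf1 (−1.33, adjusted p 0.0053) was added. The share of all genes past the test in that fit is not given.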

How the results depend on the processing

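Of 1140 recomputed values of the 10 genes over all comparisons and alternatives, 1005 kept their direction and side of the threshold, 35 lost significance, 59 gained it and 41 turned direction. Igfbp4 rests on 5, 15 and 8 raw counts in KO_P. Counting error was not separated from the spread between libraries, which is wide in the proliferative groups. The causes were not tested, except that fits with fewer libraries or weights use another spread.

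With the trend over GC content and transcript length removed, KO_P over WT_P was 0.18 for Igf1 and 0.12 for Igf1r (0.19 and 0.12 with the replicate block added), KO_D over WT_D was 0.1 for Igf1r and 0.01 for Igfbp7 (0.1 and 0.01 with the block), KO_D over KO_P was −0.34 for Igf1 (−0.36 with the block), and the interaction was −0.01 for Igf1r and 0.04 for Irs2 (−0.01 and 0.05 with the block). The Igf1 interaction, −0.01 in the fit reported, was 0.02 with median-of-ratios factors, 0.21 with library size alone, 0.05 with no filter and 0.11 with a CPM filter, and −0.32 to 0.35 with 1 library left out. Library size alone also gave 0.01 for Igfbp7 in KO_D over WT_D and 0.06 for the Irs2 interaction. Sample quality weights gave 0.03 for the Irs2 and −0.35 for the Igfbp2 interaction and 0.05 for Igfbp3 in KO_P over WT_P. Leaving out both WT_P replicate 1 and KO_P replicate 1, chosen after seeing the data, gave 0.09, −0.54 and 0.29 for these. With 1 library left out, the interaction ranged between −0.33 and 0.14 for Irs2 and between −0.24 and 0.3 for Igfbp2, Igfbp3 in KO_P over WT_P between −0.66 and 0.22, and Igfbp7 in KO_D over WT_D between −0.04 and 0.

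The genes past the fold limit in WT_D over WT_P, 0 in the fit reported, were 2 with a log2 fold change above 1 as the only limit, 1 with library size alone, 2 with quality weights, 1 with only the 6 libraries compared, 2 with both libraries left out and 0 to 2 with 1 left out. The 5 past the test there were 8 with library size alone, quality weights or only 6 libraries, and 4 to 8 with 1 left out. In KO_D over WT_D the 5 were 8 with quality weights, only 6 libraries or both libraries left out, and 4 to 8 with 1 left out. The other pathway genes past the test, 18 in KO_D over WT_D, were 35 with quality weights, 35 with only 6 libraries and 28 with both left out, and the 24 in WT_D over WT_P were 37 with weights. Shares of all genes are not given for these fits, in which the spread of every gene can change.

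Library numbers did not pair the samples: over 18 pairs of same-numbered libraries the correlation of deviations was −0.385 to 0.124, over 0.1 in 2. With the replicate block, genes past the test numbered 8 in KO_P over WT_P and 5 in KO_D over WT_D, as without it, where Igfbp4 missed the test (0.83, adjusted p 0.0709) and Irs2 passed it (−0.46, adjusted p 0.0449).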

Other observations

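Genes that FOXO transcription factors are known to activate when insulin and IGF signalling is low were also counted, from a list of 13 genes that were all tested. In KO_D against WT_D 6 were higher and 3 lower (median log2 fold change 0.21), where 11.1% of all genes were higher and 12.5% lower. In KO_P against WT_P 4 were higher and 3 lower (median −0.01), where 28.2% and 27.2% of all genes were. By state, 8 were higher and 1 lower in KO_D than in KO_P (median 0.54), where 28.7% and 27.7% of all genes were, and 8 were higher and 0 lower in WT_D than in WT_P (median 0.61), where 16.6% and 15.3% were. Trim63, a muscle ubiquitin ligase, had 39.1, 34.6 and 50.1 normalized counts in KO_D against 330, 318 and 284 in WT_D (−2.91, SE 0.3, limma adjusted p 4.77e-06). Fbxo32, the other well-known ubiquitin ligase of muscle wasting, named after its values were seen, had 6160, 6533 and 6187 in KO_D against 5338, 5208 and 5826 in WT_D, with a log2 fold change of 0.21 (adjusted p 0.129). Bnip3, a mitophagy receptor, was higher in KO_D than in WT_D by 1.47 on the log2 scale (SE 0.15, adjusted p 4.81e-06).

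Pik3ip1, an inhibitor of PI3 kinase, had 503, 564 and 533 normalized counts in KO_P against 190, 205 and 201 in WT_P (1.42, SE 0.1, adjusted p 3.48e-08). Txnip, a negative regulator of glucose uptake, was higher in KO_P than in WT_P by 1.38 on the log2 scale (SE 0.11, adjusted p 8.56e-08) and in WT_D than in WT_P by 2.01 on the log2 scale (SE 0.11, adjusted p 8.2e-09). Sesn3, a sestrin that restrains mTORC1, was higher in KO_D than in KO_P by 2.82 on the log2 scale (SE 0.12, adjusted p 7.53e-11) and in WT_D than in WT_P by 1.88 on the log2 scale (SE 0.12, adjusted p 2.95e-08). Gadd45a, a stress response gene, was higher in KO_D than in KO_P by 2.64 on the log2 scale (SE 0.13, adjusted p 2.8e-10). In WT_D over WT_P it was 1.24 (SE 0.12, adjusted p 2.14e-06). Its Gne KO effect differed between states by 1.39 on the log2 scale (SE 0.18, adjusted p 2.67e-05). Cited2, a transcriptional coregulator, was lower in KO_D than in KO_P (log2 fold change −1.54, SE 0.14, adjusted p 1.65e-07). It was higher in KO_P than in WT_P (1.17, SE 0.14, adjusted p 4.37e-06) and lower in KO_D than in WT_D (−0.46, SE 0.14, adjusted p 0.0292). The difference of these effects between states was −1.62 (SE 0.2, adjusted p 1.8e-05).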
